A study of Homo sapiens with 23 samples.

Results

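These results concern 844 chromatin regions of SH-SY5Y cells that carried a peak of LSD1 in every LSD1 list analysed and a peak of its isoform LSD1+8a, but no peak of SVIL. SH-SY5Y, a line from a human neuroblastoma, becomes neuron-like under retinoic acid and brain-derived neurotrophic factor (BDNF). Peaks of 5 lists were pooled, and peaks that shared at least 1 bp were merged into regions, which gave 32188 regions. The 844 are the regions with peaks from 4 lists and none from the fifth, or 2.62% of all. The regions were thus chosen by the presence or absence of a called peak in these lists. That presence, and the ranks, tags and summits of the same peaks, are given as a description with no test.

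The 4 lists are LSD1+8a in cells with a control shRNA at day 3 of BDNF, LSD1 in cells with a control shRNA at day 3, LSD1 in cells with an shRNA against LSD1+8a at day 0 (below, knockdown cells) and LSD1 in cells with a control shRNA at day 0. The list that had to hold no peak in a region is SVIL in cells with a control shRNA at day 3. All groups come from the same line, infected with an shRNA. The labels' protocols give 4 days of 10 µM retinoic acid, followed by BDNF at 50 ng/mL without serum. Day 0 and day 3 count the days on BDNF. With 1 library per group, conditions could not be tested against each other, and none of the values has an error from replicates. How far the shRNA lowered LSD1+8a was not examined here, nor how specific the antibodies were for either form of LSD1.

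LSD1 (KDM1A) removes methyl groups from lysines of histone H3 and acts largely within corepressor complexes with CoREST and histone deacetylases. LSD1+8a is a splice form, found in neurons, that holds an extra microexon in the catalytic domain. SVIL (supervillin) binds actin and membranes, and the series' design text gives it as an LSD1+8a cofactor.

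The regions are called LSD1+8a constant regions here. Constant means only that LSD1 was listed in all 3 LSD1 libraries, not that its level was equal in them. They are set beside 2498 LSD1-only constant regions, with the 3 LSD1 lists and neither other protein, and 139 SVIL constant regions, with peaks from all 5 lists. Intervals in parentheses are exact (Clopper-Pearson) 95% binomial intervals on the number of regions or peaks and cover counting error only. Peaks numbered 3378 in the LSD1+8a list and 20748 in the LSD1 list of day 3. The LSD1 lists of day 0 had 10248 in knockdown cells and 16882 in control cells, and the SVIL list had 1452. Tags in peaks numbered 149464, 1266603, 346367, 539449 and 35701 in the same order. A longer list cannot be told apart from a deeper library, as the number of reads behind each was not at hand. Positions refer to hg19. Gene names and sequences are left out, because no genome or annotation of that build was used here.

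Lack of a SVIL peak was the general state of the merged regions. Of the 983 regions with all 3 LSD1 lists and LSD1+8a, 844 (85.9%, 83.5 to 88.0) had none, against 95.6% (95.4 to 95.8) of all 32188 regions. Among regions with the 3 LSD1 lists but without LSD1+8a the share was 92.2% (91.1 to 93.2), or 2498 of 2710. It was 92.2% (91.2 to 93.0) among all 3369 regions with an LSD1+8a peak. The 844 regions made up 25.1% (23.6 to 26.6) of the 3369 LSD1+8a regions and 22.9% (21.5 to 24.2) of the 3693 regions with all 3 LSD1 lists. The SVIL list began at a score of 71.7 and the others at 50.0 to 50.01. If the scores share a scale, which is not stated, peaks scoring between these values could be listed for LSD1 and LSD1+8a but not for SVIL.

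The LSD1+8a constant regions took a different share of each list. They held 848 LSD1+8a peaks (25.1% of that list, 23.6 to 26.6) and 851 LSD1 peaks of day 3 (4.10%, 3.84 to 4.38). In the day 0 lists they held 856 LSD1 peaks of knockdown cells (8.35%, 7.82 to 8.91) and 867 of control cells (5.14%, 4.81 to 5.48). The shares were highest among the best scoring peaks of every list. Of the top 10% of LSD1+8a peaks, 40.4% (35.1 to 45.8) lay in these regions, against 12.8% (9.45 to 16.8) of the lowest 10%. Of the top 10% of knockdown LSD1 peaks 23.8% (21.2 to 26.6) did, and of the top 10% of control day 0 peaks 18.1% (305 of 1688). In the lowest 10% of these lists the shares were 3.71% and 1.95%.

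Each region was merged from overlapping peaks by the rule, so the overlap of its peaks is a description only. In 808 regions (95.7%) every list gave exactly 1 peak, and 36 had a list with more than 1. The share was also 95.7% in LSD1-only constant regions, and 87.8% in SVIL constant regions. Region length had a median of 1377 bp, with quartiles of 1130 and 1705 bp and a range of 618 to 4201 bp. The median was 1353.5 bp in LSD1-only and 1621 bp in SVIL constant regions. In 811 regions (96.1%) the strongest peaks of the 4 lists shared at least 1 base, and the stretch common to them had a median of 707 bp. In 457 regions the LSD1+8a peak lay wholly inside the day 3 LSD1 peak. It lay wholly inside the knockdown peak in 243 regions and the control day 0 peak in 328. In 5 regions the strongest LSD1+8a and day 3 LSD1 peaks did not touch and were joined by peaks of other lists.

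Peaks in these regions had about as many tags for LSD1+8a as for LSD1 at day 0, and more for LSD1 at day 3. Taking the strongest peak of a list per region, the median was 43 tags for LSD1+8a, with quartiles of 33 and 60 and a range of 15 to 214. For LSD1 at day 3 it was 63 tags, with a range of 18 to 456. For LSD1 at day 0 it was 43 tags in knockdown cells (range 10 to 264) and 46 tags in control cells (range 11 to 303). Tags are raw numbers from libraries of unknown depth and are no measure of relative binding between lists. Median peak length was 875 bp for LSD1+8a, 1160 bp for LSD1 at day 3, 903 bp in knockdown cells and 1006 bp in control cells at day 0. The medians over all peaks of each list, in the same order, were 831, 1044, 769 and 835 bp.

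**Figure D1:**
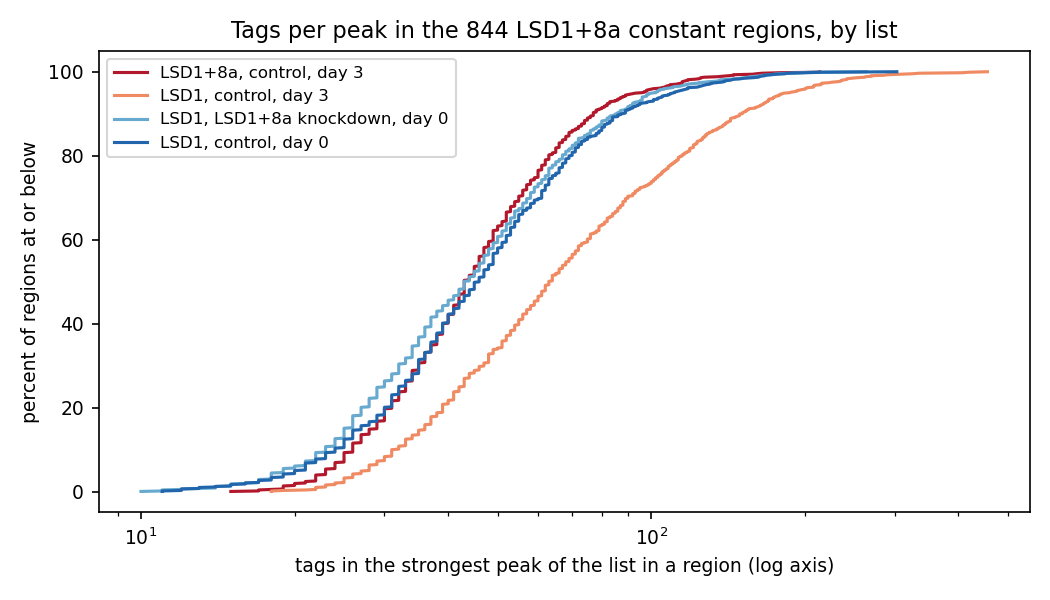
Cumulative share of the 844 LSD1+8a constant regions (y axis, percent) by the number of tags in the strongest peak of each list (x axis, log scale). The curve for LSD1 at day 3 lies to the right, with a median of 63 tags, and the other 3 curves lie close together, with medians of 43 to 46 tags.

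Within their own lists the peaks of these regions ranked above the middle, most of all at day 0. Ranks are given as percent of a list, with 0 for the highest score. The median rank was 38.7% for LSD1+8a, 36.6% for LSD1 at day 3, 23.4% for LSD1 in knockdown cells and 19.1% in control cells at day 0. For LSD1+8a, 136 of 844 (16.1%, 13.7 to 18.8) were in the top 10% of the list, which holds 9.98% of all its peaks by construction. For LSD1 at day 3, 219 regions (25.9%, 23.0 to 29.0) were in the top 10%, against 10.0% of all peaks. At day 0, 244 regions (28.9%, 25.9 to 32.1) were in the top 10% of the knockdown list, against 9.99% of all peaks, and 304 (36.0%, 32.8 to 39.4) in that of the control list, against 10.0%. Since a region had to be listed 4 times to be counted, nothing is read from these excesses.

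Beside the LSD1-only constant regions, the largest difference in rank was in knockdown cells. The median knockdown rank was 23.4% in the LSD1+8a constant regions and 45.7% in the LSD1-only ones, and 10.2% (9.05 to 11.5) of the LSD1-only regions were in the top 10%. In control cells at day 0 the median was 19.1% in LSD1+8a constant and 27.9% in LSD1-only regions, and 21.3% (19.7 to 23.0) of LSD1-only regions were in the top 10%. At day 3 it was 36.6% in LSD1+8a constant and 34.9% in LSD1-only regions, with 19.8% (18.3 to 21.4) of LSD1-only regions in the top 10%. The lists differ in length and chose these regions, so the differences are descriptions only. The SVIL constant regions differed from the LSD1+8a constant regions mostly at day 3. Their median rank for LSD1 at day 3 was 7.78%, and 75 of 139 were in the top 10% (95% interval 45.3% to 62.4%). For LSD1+8a, knockdown LSD1 and control day 0 LSD1 their median ranks were 32.0%, 21.8% and 14.5%.

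**Figure D2:**
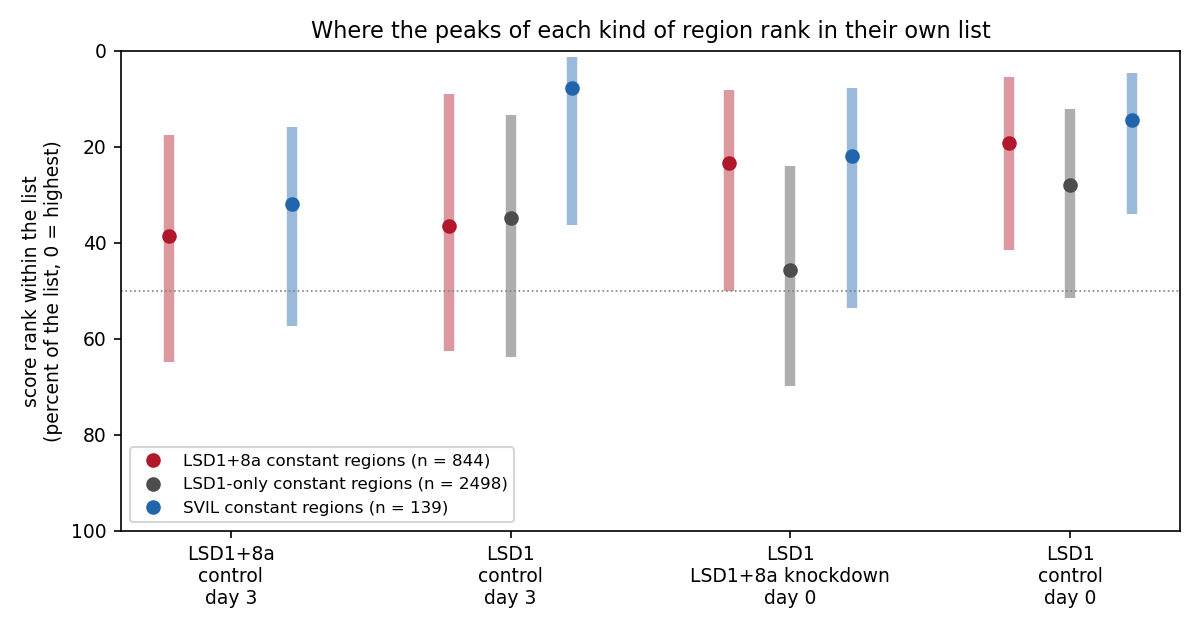
Score rank within each list (y axis, percent of the list, 0 for the highest score) of the strongest peak per region, for LSD1+8a constant, LSD1-only constant and SVIL constant regions (points, medians; bars, quartiles). LSD1-only regions sit lowest in the knockdown list, at a median of 45.7%, and SVIL regions sit highest in the day 3 LSD1 list, at 7.78%.

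Regions were also counted by how many of their 4 peaks ranked high. What unrelated ranks would give was not computed, so nothing is read from these counts. In 26 regions (3.08%) all 4 peaks were in the top 10%, in 77 regions 3 were, in 130 regions 2 were, in 308 regions 1 was and in 303 (35.9%) none was. All 4 peaks were in the upper 50% of their lists in 237 regions (28.1%), and all 4 in the lower 50% in 17. The lowest of the 4 ranks belonged to LSD1+8a in 341 regions, to LSD1 at day 3 in 284, to knockdown LSD1 in 131 and to control day 0 LSD1 in 88.

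The order of the regions by score was similar between the LSD1 lists of day 0 and dissimilar between LSD1+8a and LSD1 at day 3. Across the 844 regions Spearman's rho was 0.63 between knockdown and control LSD1 at day 0 and 0.29 between LSD1 at day 3 and LSD1 at day 0 in control cells. It was 0.16 between LSD1 at day 3 and knockdown LSD1. LSD1+8a gave -0.05 with LSD1 at day 3, 0.14 with knockdown LSD1 and 0.11 with control day 0 LSD1. By fold enrichment instead of score these last 3 values were 0.20, 0.26 and 0.25. In the SVIL constant regions LSD1+8a also gave -0.05 with LSD1 at day 3 by score, and knockdown with control day 0 LSD1 gave 0.55. In the LSD1-only constant regions knockdown with control day 0 LSD1 gave 0.45. These are descriptions over regions that share libraries and were chosen for being listed in each. Among the ChIP libraries analysed, titles of day 3 carry no library number while those of day 0 do. What the number marks is not stated, so day cannot be told apart from any difference that goes with it. Which input each list was called against is also unknown here.

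**Figure D3:**
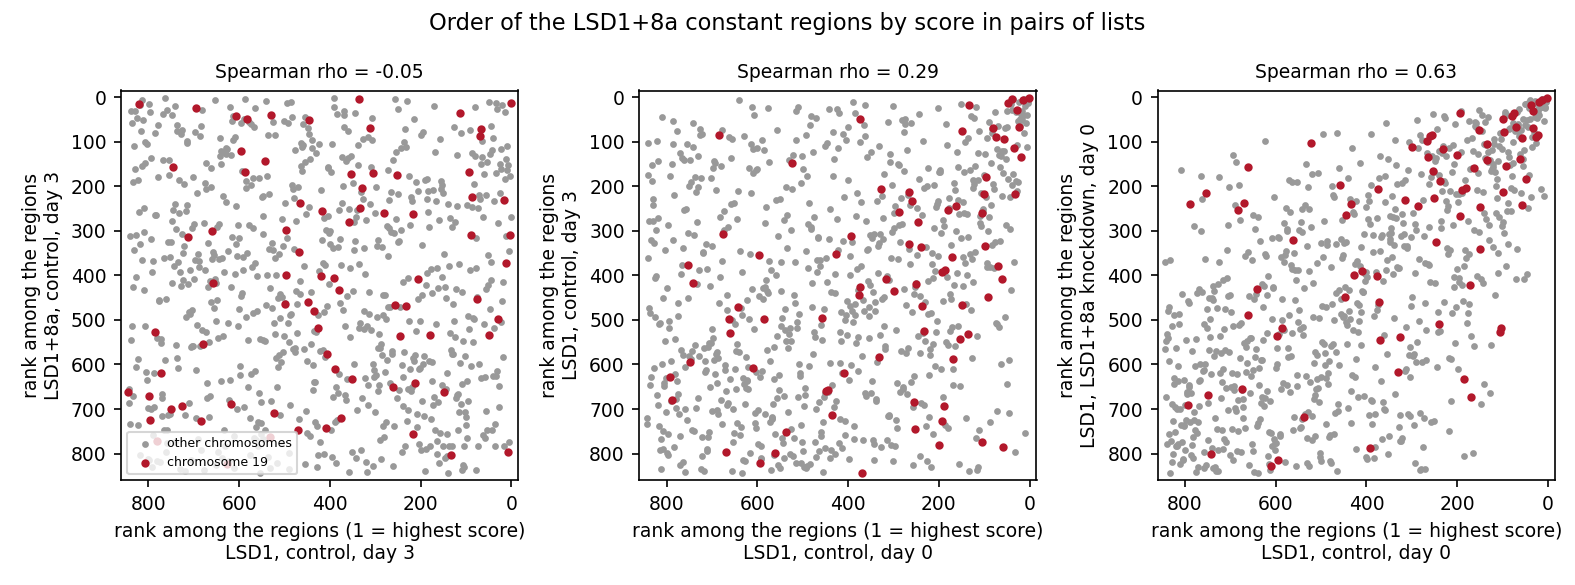
Rank by score among the 844 regions (1 is the highest) for LSD1+8a against LSD1 at day 3, LSD1 at day 3 against day 0 in control cells, and LSD1 in knockdown against control cells at day 0, each point a region and regions of chromosome 19 in red. Points follow the diagonal in the last panel (rho 0.63) and scatter over the whole square in the first (rho -0.05).

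The 10 regions with the best weakest rank were all in the top 5.55% of every list. First was a region on chromosome 19 (42746396 to 42747899), with 122 tags for LSD1+8a, 419 for LSD1 at day 3, 188 in knockdown cells and 171 in control cells at day 0. Its fold enrichments were 38.3, 89.5, 30.8 and 31.5 in the same order, and its summits were spread over 533 bp. The second, on chromosome 17 (73779950 to 73782647), had 161, 236, 149 and 162 tags, with its 4 summits within 46 bp. It had a SVIL peak 3911 bp from its edge, which makes it also the region with the fourth nearest SVIL peak. The third, on chromosome 18 (77438807 to 77440147), had 138, 209, 136 and 125 tags.

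All 3 were in the top 1.04% of every list. The others lay on chromosome 8 (110345874 to 110347305 and 101733962 to 101735614), chromosome 19 (54618176 to 54619428 and 20162360 to 20163697), chromosome X (130036626 to 130037707), chromosome 3 (50329493 to 50330477) and chromosome 6 (2764664 to 2766269). Their LSD1+8a peaks had 55 to 90 tags but for the first of chromosome 8, which had 115.

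Among the 5 regions with the highest LSD1+8a scores, 4 fell outside the top 20% of at least 1 LSD1 list. The highest was on chromosome 17 (80605824 to 80606757), with 214 LSD1+8a tags at a fold of 189. For LSD1 it had 24 tags at day 3, 24 in knockdown cells and 21 in control cells at day 0, at folds of 16.5, 10.8 and 9.34. Its LSD1 peak of day 3 ranked at 82.6% of the list. The next was on chromosome 4 (39459885 to 39461527), with 211 LSD1+8a tags at a fold of 102.5 and LSD1 ranks between 33.0% and 43.7%. The third, on chromosome 19 (57874199 to 57875128), had 145 LSD1+8a tags, the one after it, on chromosome 1 (36689264 to 36690620), had 165, and the last, on chromosome 17 (78120383 to 78121683), had 178. Only the chromosome 1 region among these 5 ranked within the top 20% for LSD1 in all 3 lists, with 68, 88 and 78 tags at day 3, in knockdown cells and in control cells at day 0. Over all 844 regions, 60 (7.11%) were in the top 10% for LSD1+8a and the lower 50% for LSD1 at day 3, and 94 (11.1%) were the reverse. In the top 10% were 136 regions for LSD1+8a and 219 for LSD1 at day 3, and in the lower 50% were 320 and 318. What unrelated ranks would give was not computed, so nothing is read from such counts here or below.

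Regions with the largest differences in rank, chosen after their values were seen, show both cases. On chromosome 11, a region (43333056 to 43334023) was number 7 of 844 for LSD1+8a, with 107 tags, and number 813 for LSD1 at day 3, with 19 tags. A region on chromosome 19 (7615864 to 7616816) was number 7 for LSD1 at day 3 and for knockdown LSD1 and number 14 for control day 0 LSD1, but number 796 for LSD1+8a, with 32 tags. On chromosome 16, a region (12009398 to 12010526) was number 16 for LSD1 at day 3 and number 784 for LSD1+8a, with 153 and 25 tags. It had the highest fold for LSD1 at day 3 of all 844 regions, 163. A region on chromosome 7 (13505965 to 13507532) was number 6 for LSD1 at day 3 and number 774 for LSD1+8a.

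For LSD1 in control cells, 219 of the 844 were in the top 10% at day 3 and 304 at day 0, and 318 and 159 in the lower 50%. Between day 3 and day 0 in control cells, 35 regions (4.15%) were in the top 10% at day 3 and the lower 50% at day 0, and 71 (8.41%) were the reverse. Among the first kind, a region on chromosome 2 (29799836 to 29804036) had 326 LSD1 tags at day 3 and 59 at day 0, and ranked 45 and 810 among the 844. It is the longest of all, at 4201 bp. Among the second kind, a region on chromosome 20 (44717633 to 44719059) had 36 LSD1 tags at day 3 and 89 at day 0, and ranked 797 and 32. In knockdown cells it had 82 tags and ranked 29. A region on chromosome 17 (43393714 to 43395197) had 53 LSD1 tags at day 3, 124 in knockdown cells and 137 in control cells at day 0. Between knockdown and control cells at day 0 the numbers were smaller. In 10 regions the peak was in the top 10% in knockdown cells and the lower 50% in control cells, and in 19 it was the reverse. The top 10% held 244 regions in knockdown cells and 304 in control cells, and the lower 50% held 211 and 159. A region on chromosome 11 (64863207 to 64864328) was number 163 in knockdown cells and number 809 in control cells, with 33 and 31 tags at folds of 36.3 and 6.03. On chromosome 9, a region (136500658 to 136502807) was number 799 in knockdown cells and number 165 in control cells, with 63 and 73 tags at folds of 4.47 and 13.0. Tags in both were nearly equal, while fold and score were not. These 5 regions were chosen after their values were seen.

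Summits of LSD1+8a and LSD1 lay close together in these regions. Merging of overlapping peaks itself limits how far apart summits can lie. The median distance was 82 bp between LSD1+8a and LSD1 at day 3 (quartiles 33 and 208 bp), with 476 of 844 pairs (56.4%) within 100 bp. It was 66 bp between LSD1+8a and knockdown LSD1 and 72 bp between LSD1+8a and control day 0 LSD1. Between LSD1 at day 3 and at day 0 in control cells it was 54 bp, and between knockdown and control LSD1 at day 0 it was 40 bp. Chromatin was sheared to 300 to 800 bp, per the labels' protocols, so these distances lie well below the fragment size. Pairs of the same lists outside these regions had medians of 88, 72, 79.5, 69 and 50 bp in the same order, with 630 (54.1%) of the 1164 pairs of LSD1+8a and LSD1 at day 3 within 100 bp. The SVIL constant regions had a median of 63 bp between LSD1+8a and LSD1 at day 3, and their SVIL summits lay 102 bp from those of LSD1+8a and 85 bp from those of LSD1.

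**Figure D4:**
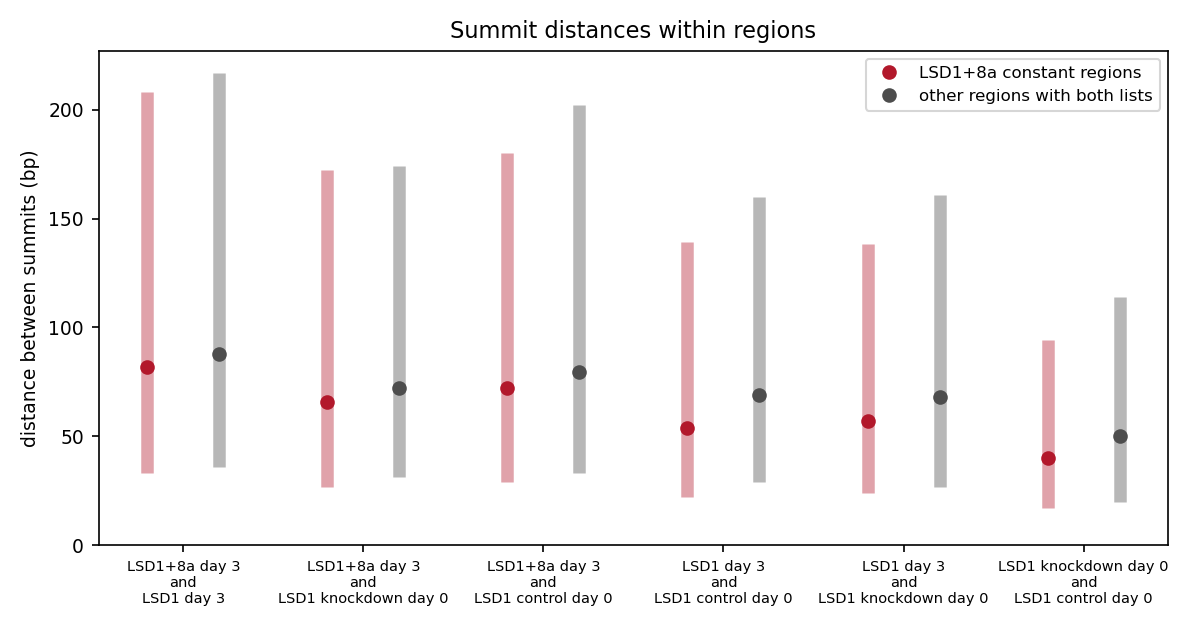
Distance between the summits of 2 lists within a region (y axis, bp; points, medians; bars, quartiles) in LSD1+8a constant regions and in all other regions with both lists. In every pair the median of the LSD1+8a constant regions is the lower, from 40 bp (knockdown and control LSD1) to 82 bp (LSD1+8a and day 3 LSD1), and the bars overlap widely.

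Counting all lists, the 4 summits fell within 100 bp in 293 regions (34.7%) and were spread over more than 500 bp in 139 (16.5%). The median spread was 150 bp, against 140 bp for the same 4 lists in the SVIL constant regions. The spread was smaller in stronger regions. In the 211 regions with the best weakest rank it had a median of 108 bp and 48.8% were within 100 bp, while in the 209 with the poorest these were 181 bp and 25.4%. The summit farthest from the middle of the 4 was that of LSD1+8a in 319 regions (37.8%, 34.5 to 41.2), of LSD1 at day 3 in 232, of knockdown LSD1 in 136 and of control day 0 LSD1 in 154, with 3 ties.

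Position along the genome was not used to choose the regions. Chromosome 19, the most gene-dense human chromosome, held 79 of the 844 regions (9.36%, 7.48 to 11.5), against 3.75% of all 32188 regions. The lists differed in their share there. Chromosome 19 had 178 of the 3378 LSD1+8a peaks and 484 of the 20748 LSD1 peaks of day 3. At day 0 it had 717 of the 10248 LSD1 peaks of knockdown cells and 877 of the 16882 of control cells. It held 5.80% (4.92 to 6.79) of the LSD1-only and 3.60% (1.18 to 8.19) of the SVIL constant regions, and 3.92% (3.20 to 4.75) of the 2525 other regions with LSD1+8a. Of the 178 LSD1+8a regions on chromosome 19, 44.4% (37.0 to 52.0) were LSD1+8a constant regions. Chromosome 16 held 49 of the 844 (5.81%, 4.33 to 7.60), against 3.05% (2.87 to 3.25) of all regions, and chromosome 17 held 54 (6.40%, 4.84 to 8.27), against 4.32% (4.10 to 4.55). Chromosomes 16 and 17 also held 4.51% (3.74 to 5.40) and 6.34% (5.42 to 7.36) of the other LSD1+8a regions. The regions were scarce on chromosome 13, with 8 (0.948%, 0.410 to 1.86, against 2.91% of all regions), chromosome 18, with 5 (0.592%, 0.193 to 1.38, against 2.17%), and chromosome 3, with 29 (3.44%, 2.31 to 4.90, against 6.68%). The interval also lay below the share of all regions on chromosome 10 (3.08%, 2.02 to 4.48, against 5.15%). The same held for chromosome 5 (3.91%, 2.71 to 5.45, against 5.90%) and chromosome 4 (3.32%, 2.22 to 4.76, against 4.79%). Of the other LSD1+8a regions, chromosomes 13, 18, 3, 10, 5 and 4 held 2.53%, 1.82%, 5.82%, 4.59%, 5.35% and 3.60%. Of the LSD1-only constant regions they held 2.96%, 2.24%, 6.20%, 4.32%, 5.96% and 4.72%. Of the 139 SVIL constant regions they held 0%, 0%, 5.04%, 2.88%, 2.88% and 2.88%. Low shares were thus in part also seen in other classes. Regions that lie near each other share their surroundings, so the intervals may be too narrow. Gene content was not tested, and with 1 library per list no test of these differences was made.

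**Figure D5:**
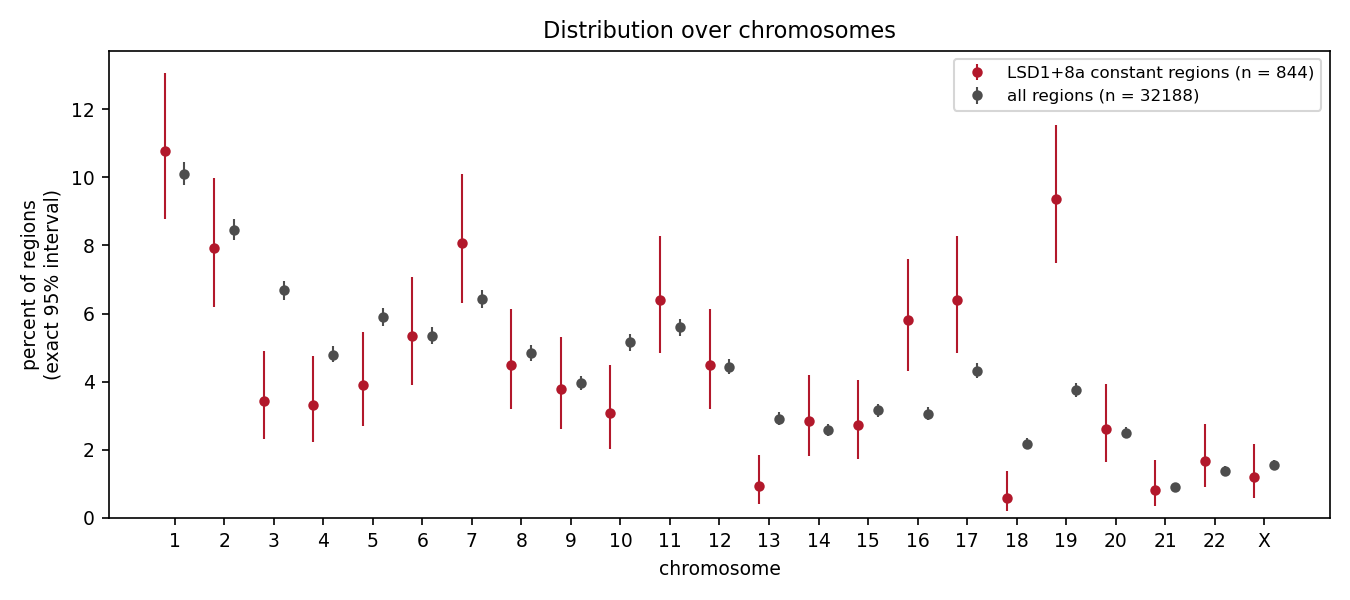
Share of the LSD1+8a constant regions and of all merged regions on each chromosome (y axis, percent; bars, exact 95% intervals that cover counting error only). Chromosome 19 holds 9.36% of the LSD1+8a constant regions and 3.75% of all regions, and chromosomes 13 and 18 hold 0.948% and 0.592% of the LSD1+8a constant regions.

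Among the LSD1+8a constant regions, those of chromosome 19 had a larger share in the top 10% for LSD1 at day 0, beyond the counting intervals, while at day 3 the intervals overlapped. In knockdown cells 46 of the 79 (58.2%, 46.6 to 69.2) were in the top 10% of the list, against 25.9% (22.8 to 29.1) of the 765 regions elsewhere. In control cells at day 0, 47 (59.5%, 47.9 to 70.4) were, against 33.6% (30.3 to 37.1) elsewhere. Chromosome 16 also had high shares, with 22 of 49 (44.9%, 30.7 to 59.8) in knockdown cells and 21 (42.9%, 28.8 to 57.8) in control cells. At day 3 it had 17 for LSD1 and 2 for LSD1+8a. These 49 regions are among the 765, and no further chromosome was counted by itself. For LSD1 at day 3 the share was 26.6% (17.3 to 37.7) on chromosome 19 and 25.9% elsewhere. For LSD1+8a it was 16.5% (9.06 to 26.5) on chromosome 19 and 16.1% (13.5 to 18.9) elsewhere. All LSD1 peaks of chromosome 19 also ranked high at day 0, with 150 of 717 (20.9%) in the top 10% in knockdown cells and 199 of 877 (22.7%) in control cells. At day 3, 45 of 484 (9.30%) were. Of all LSD1+8a peaks of chromosome 19, 29 of 178 (16.3%, 11.2 to 22.6) were in the top 10%, against 9.63% (8.62 to 10.7) elsewhere. Median LSD1 tags in the 79 regions were 61 at day 3, 58 in knockdown cells and 56 in control cells at day 0. Elsewhere they were 64, 42 and 45 tags.

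Few of the regions lay close to another of their kind. Of the 844, 40 (4.74%, 3.41 to 6.40) lay within 25 kb of another, in 17 pairs and 2 runs of 3. Among the more numerous LSD1-only constant regions 13.7% (12.4 to 15.1) lay within 25 kb of another of their kind, and among the 139 SVIL constant regions 6 (4.32%, 1.60 to 9.16) did. These classes differ in size, which alone moves such a share. The longest run was on chromosome 19 (57900550 to 57947148). Its 3 regions had 61, 55 and 33 LSD1+8a tags and 72, 39 and 119 LSD1 tags at day 3. At day 0 they had 64, 37 and 58 LSD1 tags in knockdown cells and 58, 38 and 78 in control cells. No other region lay between them. The other run of 3 was on chromosome 2 (27578457 to 27604214), and its middle region (27592534 to 27594616) had 125 LSD1+8a tags, and 262, 154 and 164 LSD1 tags at day 3, in knockdown cells and in control cells at day 0. The longest pair, on chromosome 1 (156710146 to 156738081), had 2 further regions between its ends, neither with LSD1+8a.

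In windows of 1 Mb, picked once their counts were known, chromosome 2 held most regions between 27 and 28 Mb, with 7 of the 36 there. Next came those from 57 to 58 Mb of chromosome 19 (6 of 20), 2 to 3 Mb of chromosome 16 (6 of 32) and 155 to 156 Mb of chromosome 1 (6 of 37). Regions with SVIL numbered 3 in the chromosome 2 window, 0 in that of chromosome 19, 1 in that of chromosome 16 and 2 in that of chromosome 1. Of all merged regions 95.6% lacked SVIL, so nothing is read from these numbers.

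Neighbours were counted as other regions within 25 kb, by list, with no test. Of the 844, 57.1% (53.7 to 60.5) had a region of any kind within 25 kb, against 65.2% (63.3 to 67.1) of LSD1-only constant regions and 60.8% (60.3 to 61.3) of all regions. Another region with LSD1 of day 3 lay within 25 kb of 37.0% (33.7 to 40.3), against 51.8% (49.8 to 53.7) of LSD1-only constant regions and 46.6% (46.1 to 47.2) of all. Another region with LSD1+8a lay within 25 kb of 14.5% (122 of 844), against 11.5% (10.3 to 12.8) of LSD1-only constant regions, 19.4% (27 of 139) of SVIL constant regions and 10.0% (9.71 to 10.4) of all. For knockdown LSD1 the share was 32.7% (29.5 to 36.0), against 32.3% (30.5 to 34.2) of LSD1-only constant regions and 26.2% (25.8 to 26.7) of all. For control day 0 LSD1 it was 42.2% (38.8 to 45.6), against 46.4% (44.4 to 48.3) and 40.3% (39.8 to 40.8).

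The share of these regions near a SVIL peak had an interval that held the share of all regions without one. A SVIL peak lay within 10 kb of 15 regions (1.78%, 0.998 to 2.91), against 3.56% (2.87 to 4.37) of LSD1-only constant regions and 2.26% of all regions without a SVIL peak. Under a reciprocal overlap of 50% this share was 11.5%. A short SVIL peak inside a longer LSD1 peak fails that overlap, so the 11.5% can include regions that hold a SVIL peak. Within 25 kb a region with SVIL lay near 5.57% (4.12 to 7.34), against 5.42% (5.17 to 5.67) of all regions. The median distance to the nearest SVIL peak was 554 kb. The closest was 239 bp from a region on chromosome 15 (50646676 to 50648148), which had 54 tags for LSD1+8a, 32 for LSD1 at day 3, 14 in knockdown cells and 36 in control cells at day 0. Next came regions on chromosome 1 (155828633 to 155831131, 1501 bp), chromosome 2 (47283098 to 47285777, 3652 bp), chromosome 17 (the 3911 bp named above) and chromosome 2 (131099422 to 131100940, 4437 bp). In all 139 SVIL constant regions a SVIL peak lay wholly inside a peak of another list. The smallest overlaps with SVIL were therefore those of the shortest SVIL peaks, in regions on chromosome 3 (23958086 to 23959135, 199 bp of overlap), chromosome 11 (74109439 to 74110572, 204 bp), chromosome 7 (106807744 to 106809894, 207 bp), chromosome 8 (28746998 to 28748936, 207 bp) and chromosome 4 (17490854 to 17493284, 216 bp). Their SVIL peaks had 12 to 17 tags.

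Some scores lay near the lower limit of their lists. In 334 regions (39.6%) at least 1 of the 4 peaks scored under 60, and in 200 (23.7%) the LSD1+8a peak did. The lowest LSD1+8a score was 50.23. The lowest SVIL score was reached in all 4 lists by 304 regions (36.0%). Shares of all peaks under these scores were not computed, so nothing is read from these counts. The median LSD1+8a score was 76.2 in these regions and 68.5 over the whole list. For LSD1 at day 3 these medians were 115.7 and 91.9. At day 0 they were 128.7 and 80.2 in knockdown cells, and 136.0 and 80.5 in control cells. On the other side, regions that lacked a single one of the 4 lists numbered 2498 without LSD1+8a, 517 without LSD1 at day 3, 337 without knockdown LSD1 and 118 without control day 0 LSD1. The missing list had a peak within 1 kb in 14, 7, 8 and 1 of these, so few were missed by position.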

How the data were processed

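ChIP-seq of 23 samples (14 ChIP, 9 input) is described in the labels, and 5 peak lists, 1 per ChIP library, were analysed. The other 9 ChIP samples were not analysed here. CASAVA, Bowtie 1.0.0 and the builds hg19 and mm9 appear in the submitters' processing notes. The lists hold human chromosomes and are taken as hg19. The caller, its threshold and the inputs were not given in the sources used. Each list was tied to its sample by the library title in its name. Tags per peak, as deposited, are raw counts. Fold enrichment, as deposited by the authors, is a ratio to an unstated background. The deposited score lost its name in the file headers and has no stated unit. Score and fold are the authors' values and served to describe and rank peaks within a list. The exception is the lowest SVIL score, which was also applied to the other lists as if all scores shared a scale.

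Peaks were merged at 1 bp of overlap, and the strongest peak of each list stands for a region. Distances run from edge to edge, and runs are regions at most 25 kb apart. Shares carry exact 95% binomial intervals (SciPy 1.17.1, pandas 2.3.3, Python 3.11.15). The code was tested on simulated peaks. Members, comparison classes and the rule for named regions were chosen with earlier results of these data known. Named regions are the 10 with the best weakest rank (as percent of the list), the 5 with the highest LSD1+8a score, the 5 nearest a SVIL peak, the 5 SVIL constant regions with the smallest overlap of a SVIL peak with a peak of another list (in effect the shortest SVIL peaks), the 3 with most peaks and the 3 longest runs. Others are said to have been chosen after their values were seen. Planned promoter shares and motif contents were not run, for want of an hg19 genome here. Alternatives for overlap, merging and score are given at the end.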

Additional observations from a re-analysis of the deposited data

How the results depend on the processing

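Of 64 values recomputed under 8 alternatives, 42 stayed within the 95% interval of the reported value, or for numbers of regions within 1.5 times, and 22 moved. With a reciprocal overlap of 50% with the day 3 LSD1 peak, 98.9% of regions lacked SVIL (SVIL peaks had a median of 314 bp and day 3 LSD1 peaks of 1044 bp), 11.5% had a SVIL peak within 10 kb, the median LSD1+8a rank was 33.4% and the median LSD1+8a peak 909 bp. A short SVIL peak inside a longer LSD1 peak fails this overlap, so the 98.9% and 11.5% can include regions that hold a SVIL peak. With the upper 50% of each list there were 256 regions, with 13.7% on chromosome 19, a median LSD1+8a rank of 21.5%, LSD1+8a peaks of 963 bp and LSD1+8a summits 64 bp from day 3 LSD1. With the lowest SVIL score applied to all lists there were 304 regions, with 83.3% lacking SVIL, 12.8% on chromosome 19, 2.96% within 25 kb of another, a rank of 19.8%, peaks of 951 bp and summits 72.5 bp apart. With 1452 top-scoring peaks per list there were 58 regions, of which 9 (15.5%) lay on chromosome 19 and 2 (3.45%) near SVIL. The counting error of so small a set was not weighed in calling these values moved. This set had a rank of 13.6%, peaks of 1024 bp and summits 45.5 bp apart. Stricter cuts keep fewer and stronger peaks by construction. Merging at 1 kb gave 864 regions and moved none of the 8 results beyond its interval. Nor did a fold cut at 1.5 times each list's minimum (807 regions), autosomes and X only, or leaving out regions over 10 kb or 1000 tags. No paired analysis was possible because each group is 1 library. Reads per library are unknown, which limits what an absence from a list shows.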

Other observations

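The regions with the most peaks lay on chromosome 17 (61918437 to 61920842) and chromosome 16 (11172502 to 11174552), each with 7 peaks, and chromosome 2 (170570648 to 170574721), with 6. In the chromosome 2 region the strongest LSD1+8a peak had 52 tags over 996 bp. The strongest LSD1 peaks had 335 tags over 4058 bp at day 3 and, at day 0, 17 over 676 bp in knockdown cells. In control cells at day 0 it was 39 tags over 1113 bp. Tags of the further peaks are not included. In 33 regions the strongest peaks of the 4 lists shared no base. The shortest overlap of an LSD1+8a with a day 3 LSD1 peak, among those that did overlap, was 3 bp, on chromosome 6 (86352051 to 86354259).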
